A study of Mus musculus with 24 samples.

Results

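Brains of 4-month-old mice labelled aSYN/Hsp70 were compared with brains of the same age labelled aSYN, to see which transcripts differed when Hsp70 was added to the aSYN genotype. The 12 arrays were chosen by their labels, 6 of aSYN/Hsp70 and 6 of aSYN, out of 24 in the series. The other 12 arrays were 6 of Hsp70 and 6 of wt brains of the same age. They entered the normalisation, the choice of tested probe sets, the shared estimate of the spread and the values given beside the results. They also entered the fits with array weights or covariates. Total RNA of whole brain was read on a mouse 3' expression array of 45101 probe sets. Each is a group of short probes to 1 transcript or to several, and 932 carry the symbols of several genes. aSYN is read here as alpha-synuclein and Hsp70 as the heat shock protein of that name. Both compared groups carry aSYN, and the Hsp70 genotype is what separates them. The labels give no construct, promoter, species of the inserted gene, strain or sex, and they do not say that each array is a different animal, so the p-values rest on the spread from array to array, which may be technical.

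Alpha-synuclein is a small protein of presynaptic terminals that can misfold and collect in the deposits of Parkinson's disease. HSP70 chaperones bind exposed stretches of unfolded proteins in a cycle driven by ATP. J-domain proteins bring the substrate and start the cycle, BAG proteins and other exchange factors end it, and substrates that cannot be refolded are passed to the proteasome or the lysosome. The endoplasmic reticulum has its own HSP70, and the constitutive HSP70 of the cytosol also strips the clathrin coat from synaptic vesicles with the help of auxilin.

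A difference below is aSYN/Hsp70 minus aSYN in log2 units, where a log2 level is log2(intensity + 16) after quantile normalisation, and the error given after ± beside a difference is its standard error. A probe set was called where limma's Benjamini-Hochberg adjusted p over 27022 tested probe sets was under 0.05. Of these, 194 (0.718%) were called, 134 (0.496%) higher and 60 (0.222%) lower in aSYN/Hsp70. Of the 194, 170 had 1 gene name and 24 had none or several. The named ones lay in 161 of 12929 genes (1.25%), 115 with a probe set higher (0.889%) and 47 with one lower (0.364%), Kif5c being in both. The median difference was 0.54 among the higher calls and -0.68 among the lower, against -0.03 over all tested probe sets. The 6 aSYN/Hsp70 arrays lay wholly above or below the 6 aSYN arrays in 145 of the 194. Over all tested probe sets they did so in 555 (2.05%), above in 287 (1.06%) and below in 268 (0.992%). The calls were chosen for their difference on these same arrays. A lack of overlap among them, here and for single genes below, describes the values and is no separate support. Without quantile normalisation the median over all tested probe sets was 0.01, so the direction of small differences rests on that step.

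**Figure D1:**
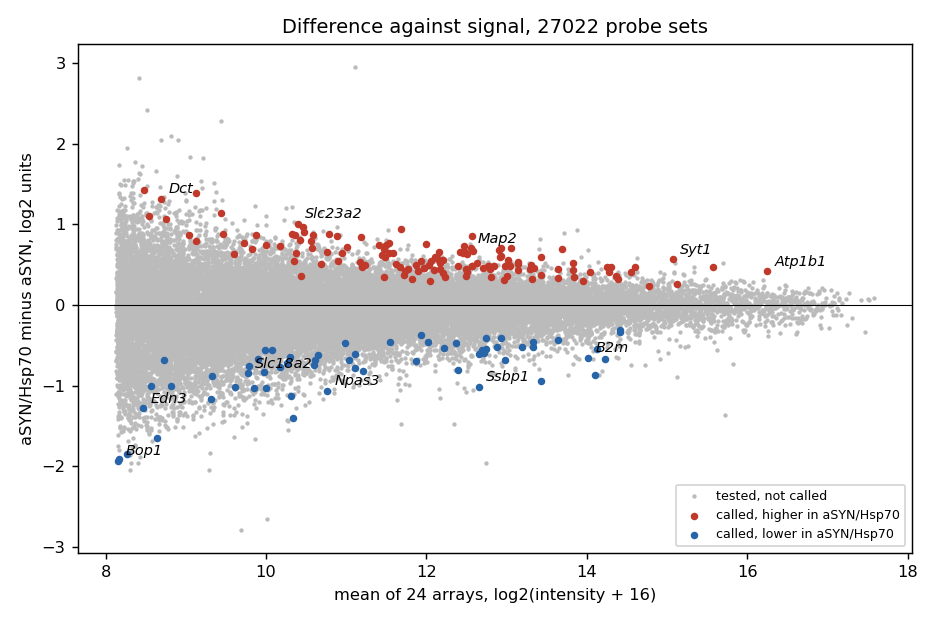
Each point is 1 of 27022 tested probe sets, with its mean log2 level over 24 arrays on the x axis and aSYN/Hsp70 minus aSYN on the y axis. The 134 called higher (red) and 60 called lower (blue) lie toward the edges of the cloud, between 1.42 and -1.93.

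The count of calls changed with the arrays in the fit. With only the 12 arrays compared, 7 probe sets were called, among them Mboat2, Btbd3, Rnf13, Sort1 and Npas3, and 5 of the 7 were among the 194. It was 49 without aSYN replicate 2 or 3, 56 without aSYN replicate 6, 127 without aSYN replicate 4, 66, 101 and 120 without aSYN/Hsp70 replicates 3, 4 and 2, and 814 without aSYN/Hsp70 replicate 6. The direction of all 194 was the same in each of these fits. They reuse most of the arrays that chose the 194, so this was nearly fixed in advance and is no separate support. Of the 194, 38 stayed called whichever of the 12 arrays was left out, among them those of Slc23a2, Cnr1, Ogt, Asb7, Adarb1, Gabrb2, Ccser2, Prkacb, Ip6k1, Mboat2, Gart, Adamts20, Npas3, Dnajc6, Rnf13, Fbxw11, Sort1, Btbd3, Pafah1b2, Il6st, Esf1 and Rtf1, both of Prepl and 1 each of Ids, Map2, Syt1 and Spin1. The other 156 lost the call without at least 1 array, and that of Mga stayed called in 2 of the 12 fits, Nnat in 3, Agk in 5 and Tmem106b in 7. Many of the largest changes were among these 156. Zfp953 stayed called in 2 of the 12 fits, and 2610005L07Rik, Cyria, Fndc3a, Glipr1 and Snrnp200 in 3. Usp12 and Rorb stayed called in 4, Lacc1, Edn3, Bop1 and Slc18a2 in 5, and Dct and Slc4a8 in 9.

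Sex, array quality and RNA quality moved with the comparison. By Xist and Y-linked probe sets, 2 of 6 aSYN/Hsp70 brains and 4 of 6 aSYN brains were female, and with sex as a covariate 90 probe sets were called. The Xist probe set of highest signal had log2 levels of 8.66 to 14.38 in aSYN/Hsp70 and 8.30 to 14.42 in aSYN brains, with a difference of -1.48 ± 1.61 (adjusted p = 0.626), and Y-linked Uty differed by 1.01 ± 0.89 (adjusted p = 0.531). Arrays 3 and 4 of aSYN/Hsp70, with 2 Hsp70 arrays, had limma weights under 0.5, and 100 probe sets were called without these 4. The control transcripts for RNA quality also differed, as the signal at the 3' end minus that at the 5' end: for Pcx it was 1.59 ± 0.19 in aSYN/Hsp70 and 2.06 ± 0.22 in aSYN (SD, n = 6 each, exact permutation p = 0.00433, adjusted over 5 tests 0.0216). For beta-actin the same measure was 0.412 ± 0.107 in aSYN/Hsp70 and 0.547 ± 0.045 in aSYN (SD, n = 6 each, exact permutation p = 0.0152, adjusted 0.0379). That of Gapdh differed by 0.0126 and that of Tfrc by 0.0904 (exact permutation p = 0.794 and 0.662, n = 6 each), and the mean of the 4 by -0.126 (exact permutation p = 0.0368, adjusted 0.0613). Without quantile normalisation the beta-actin difference was -0.0188 (exact permutation p = 0.489), so it rests on that step. With the mean 3' minus 5' signal as a covariate, 28 probe sets were called, all among the 194. The part of sex, RNA quality and the 2 arrays in each single difference was not tested. A set of 53 calls (41 higher, 12 lower) in 46 named genes (0.356% of genes) stood in each of 3 fits, those with the sex covariate, with array weights and without the 4 arrays, and these are called the held calls below. Of the 53, 26 also stood with the 3' covariate.

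Hsp70 in the label was not visible in the mouse HSP70 genes. Hspa1a and Hspa1b encode the inducible HSP70 proteins and Hspa8 the constitutive one. Hspa1a had log2 levels of 7.86 to 11.53 (median 11.09) in aSYN/Hsp70 brains, against 10.75 to 11.28 (median 11.15) in aSYN brains, a difference of -0.49 ± 0.42 (adjusted p = 0.526). The low value was replicate 4, and without it the difference was 0.07. The 3 probe sets of Hspa1b differed by 0.10, 0.60 and 0.26, with adjusted p from 0.422 to 0.893. Those of Hspa8 differed by -0.24, 0.09, -0.30 and 0.03, with adjusted p from 0.408 to 0.903. In all of them the groups overlapped. Probes designed to mouse transcripts need not read an inserted gene of another species, so these values do not check the label.

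No gene of the HSP70 family was called. Of 13 tested genes of the HSP70 and HSP110 family, read on the probe set of highest signal, 8 were above and 5 below 0 with a median of 0.11, and 0 were called on any probe set. Over all 12929 genes the median was -0.01, 47.8% were above 0 and 161 (1.25%) were called on any probe set. Over 25 other settings, which include each array left out and averaging a gene over its probe sets, the median of the family ran from 0.02 to 0.13. At an unadjusted p under 0.05 the family had 3 members, Hspa13 at 0.32, Hspa14 at -0.21 and Hspa4 at -0.20. Of 24 co-chaperones, 13 were above and 11 below 0, with a median of 0.00 that turned sign in 13 of the 25 other settings. Bag1, an exchange factor, had log2 levels of 13.71 to 14.10 in aSYN/Hsp70 brains and 14.10 to 14.27 in aSYN brains, a difference of -0.28 ± 0.07 that did not pass (adjusted p = 0.0592). Bag4 differed by 0.27 ± 0.08 and Bag3 by 0.49 ± 0.27 (adjusted p = 0.107 and 0.306). The list of HSP90, chaperonins and small heat shock proteins had 13 of 19 genes above 0 (median 0.11, turning to -0.02 with the mean of all probe sets), and the unfolded protein response 10 of 15 (median 0.14, 0.09 to 0.18 over the other settings), with 0 and 1 genes called on any probe set.

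Among all called genes, chaperones and the secretory pathway supplied 13, 11 higher and 2 lower. The roles used here were assigned after the values were seen and to called genes only, so they have no count of tested genes beside them, and their splits stand against 115 higher and 47 lower among all called genes. Dnajc6, which encodes auxilin, the J-domain partner of Hspa8 in clathrin uncoating, rose on 1 probe set. Its log2 levels were 12.94 to 13.39 (median 13.22) in aSYN/Hsp70 brains, against 12.52 to 12.88 (median 12.73) in aSYN brains, so the groups did not overlap. The difference was 0.48 ± 0.08 (adjusted p = 0.00953), a held call. Its brightest probe set differed by 0.20 (adjusted p = 0.184). Mettl21a, a methyltransferase that modifies HSP70 proteins, rose by 0.87 ± 0.19 (adjusted p = 0.0307). Canx, the lectin chaperone calnexin of the endoplasmic reticulum, rose by 0.33 on the called probe set and stood at -0.16 on its brightest one. Arcn1, a subunit of the COPI coat, and Hacd3, an enzyme of very long fatty acid synthesis, rose by 0.45 and 0.43, both held calls. Dnajc2, a J-domain protein that works at the ribosome, fell by 0.46, and Krtcap2, a subunit of the oligosaccharyltransferase, fell by 0.53.

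Windows of the promoter were read for a heat shock element because heat shock factor binds such an element upstream of HSP70 genes. RefSeq promoters (GRCm38.p6, 250 bases before to 50 after each annotated start) were matched for 96 of the 115 genes called higher and 40 of the genes called lower. The element was searched on both strands as GAA, any 2 bases, TTC, any 2 bases and GAA. It was present in 3 of 96 higher genes (3.12%) and 1 of 40 lower genes (2.5%), against 58 of 10439 tested genes (0.556%) and 179 of 27025 genes of the table (0.662%). A gene can have several windows, and in the same order these numbered 139, 44, 13466 and 32851. The shares were not tested. The windows below are the upstream stretches that hold it, with the element in capitals, and they are shown because they are all the matches among the called genes. Those of Mga and Pafah1b2 hold it in the opposite orientation, and Pafah1b2 has more than 1 annotated start.
Agk, chr6:40325238-40325330, + strand: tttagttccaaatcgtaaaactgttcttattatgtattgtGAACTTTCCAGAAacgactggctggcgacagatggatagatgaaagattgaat
Nnat, chr2:157559878-157559970, + strand: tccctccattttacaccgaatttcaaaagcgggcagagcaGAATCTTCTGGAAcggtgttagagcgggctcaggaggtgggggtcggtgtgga
Pafah1b2, chr9:45985498-45985590, - strand: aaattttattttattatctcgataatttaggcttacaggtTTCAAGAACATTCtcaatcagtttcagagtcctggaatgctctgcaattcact
Mga, chr2:119896978-119897068, + strand: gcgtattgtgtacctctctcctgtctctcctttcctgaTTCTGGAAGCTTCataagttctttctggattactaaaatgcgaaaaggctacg

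Of these 4 genes, Agk, a lipid kinase of mitochondria, rose by 0.30 ± 0.07 (adjusted p = 0.0457), and Nnat, an imprinted proteolipid of the endoplasmic reticulum, rose by 0.47 ± 0.11 (adjusted p = 0.0438). Pafah1b2, a catalytic subunit of an acetylhydrolase that pairs with a dynein regulator, had log2 levels of 13.06 to 13.60 in aSYN/Hsp70 brains and 12.67 to 12.93 in aSYN brains and rose by 0.50 ± 0.09 (adjusted p = 0.0124, a held call). Mga, a transcription factor that pairs with MAX, had levels of 10.18 to 11.07 in aSYN/Hsp70 and 11.24 to 11.62 in aSYN brains and fell by 0.79 ± 0.18 (adjusted p = 0.0396). The E-box CACGTG was present in 12 of 96 higher and 3 of 40 lower genes (12.5% and 7.5%, against 11.4% of tested genes). The cAMP element TGACGTCA was present in 4 and 2 (4.17% and 5%, against 3.47%). A match describes the letters of the window and is not a site of binding.

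Ubiquitin ligases, deubiquitinases and their partners gave 15 called genes, 14 higher and 1 lower. Rnf13, a ubiquitin ligase of endosomal membranes, had log2 levels of 13.57 to 13.87 (median 13.64) in aSYN/Hsp70 brains and 12.96 to 13.17 (median 13.08) in aSYN brains. Its lowest aSYN/Hsp70 array lay above the highest aSYN array, and it rose by 0.60 ± 0.09 (adjusted p = 0.00606). Fbxw11, a substrate receptor of SCF ligases, rose by 0.65 ± 0.10 (adjusted p = 0.00606), and Asb7, a receptor of cullin ligases, by 0.79 ± 0.15 (adjusted p = 0.0196), and these 3 are the held calls of the group. Usp12, a deubiquitinase, rose by 0.88 ± 0.20, Trip12, a ligase of the HECT class, by 0.80 ± 0.17, and Ecpas, a proteasome adaptor, by 0.78 ± 0.18. Yod1, a deubiquitinase that acts with p97, fell by 0.37. The proteasome itself was not among them. Of 31 proteasome genes, 12 were above and 19 below 0, with a median of -0.04 and 0 called. The ubiquitin conjugation and removal list did not share the split of the called genes. Of its 15 tested genes, 9 were above and 6 below 0, with a median of 0.06, and 1 was called on any probe set. At an unadjusted limma p under 0.05 it had 2 genes higher and 4 lower.

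Endosomes and lysosomes gave 12 called genes, 10 higher and 2 lower. Ids, a lysosomal sulfatase of heparan and dermatan sulfate breakdown, rose on 2 probe sets. The first had log2 levels of 10.59 to 11.77 (median 11.36) in aSYN/Hsp70 brains, against 10.20 to 10.65 (median 10.35) in aSYN brains, and the second 10.79 to 11.95, against 9.81 to 10.65. The groups overlapped at the edge in the first and did not overlap in the second, and the differences were 0.88 ± 0.14 and 0.87 ± 0.19 (adjusted p = 0.00773 and 0.0291). Sort1, the sorting receptor sortilin, had levels of 11.53 to 11.76 in aSYN/Hsp70 brains and 10.98 to 11.13 in aSYN brains and rose by 0.59 ± 0.10 (adjusted p = 0.0107). Tmem106b, a lysosomal membrane protein, rose by 0.66 ± 0.14 (adjusted p = 0.0275), and with Ids and Sort1 it makes up the held calls. Vps26b, a retromer subunit, rose by 0.55, Eps15, an adaptor of endocytosis, by 0.52, and Tom1l2 and Tollip, which sort ubiquitinated cargo, by 0.65 and 0.60. Ctsz, the protease cathepsin Z, fell by 0.61 ± 0.12, and Rab27a, a small GTPase of secretory organelles, by 0.75 ± 0.16. The autophagy and lysosome list had 14 of 21 genes above 0 (median 0.10, 0.06 to 0.11 over the other settings) with 1 called on any probe set.

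Under synapse and excitability 18 called genes were placed, 12 higher and 6 lower, and 9 of them held. Cnr1, the cannabinoid receptor of presynaptic terminals, had log2 levels of 10.65 to 11.29 (median 10.89) in aSYN/Hsp70 brains, against 9.64 to 10.33 (median 9.94) in aSYN brains. No array of the 2 groups overlapped, and it rose by 0.97 ± 0.15, a 1.96-fold difference (adjusted p = 0.00606). Its other probe set, of higher signal, stood at -0.43 and was not called. Syt1, the calcium sensor of vesicle release, had levels of 14.97 to 15.50 in aSYN/Hsp70 and 14.56 to 14.85 in aSYN brains and rose by 0.57 ± 0.10 on 1 probe set and 0.47 ± 0.11 on another (adjusted p = 0.0107 and 0.0364). Lin7c, a scaffold of the synapse, rose by 0.63 ± 0.13 and 0.32 ± 0.06, and Sirpa, a membrane partner of CD47, by 0.64 ± 0.13 and 0.51 ± 0.10. Gabrb2, a subunit of the GABA-A receptor, rose by 0.73 ± 0.13 (adjusted p = 0.0107). Slc12a5, the chloride exporter KCC2, rose by 0.50 ± 0.10, and Ptprs, a receptor phosphatase of synapse formation, by 0.84 ± 0.17. Atp1b1, a subunit of the sodium pump, rose by 0.42 ± 0.08 (adjusted p = 0.0197). GABA system and interneuron genes were above 0 in 2 of 10 (median -0.08, -0.11 to 0.02 over the other settings). Glutamate receptor and scaffold genes were above 0 in 5 of 13 (median -0.11, -0.16 to 0.0028). Synaptic vesicle and release genes were above 0 in 12 of 20, with a median of 0.02 that turned sign in 6 of 25 other settings. On any probe set 1, 0 and 1 genes of these lists were called.

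The 6 lower genes of the synapse encode ion or transmitter carriers, channels or a channel partner. Slc4a8, a sodium bicarbonate exchanger of terminals, had log2 levels of 6.10 to 8.05 (median 6.56) in aSYN/Hsp70 brains, against 8.04 to 9.70 (median 8.50) in aSYN brains, and fell by 1.91 ± 0.39 (adjusted p = 0.0244). This probe set was of low signal, and the brightest other stood at -0.15. Fgf14, a partner of sodium channels, fell by 1.16 ± 0.24 on 1 probe set and stood at -0.55 (adjusted p = 0.18) on the brightest. Slc18a2, the vesicular monoamine transporter, had levels of 8.85 to 9.93 in aSYN/Hsp70 brains and 9.87 to 10.43 in aSYN brains and fell by 0.85 ± 0.18 (adjusted p = 0.0281). Of the other dopamine neuron genes, Ret stood at -0.83 (adjusted p = 0.119) and Th at 0.35 (adjusted p = 0.31), and 3 of the 9 tested genes of the list were above 0, Slc18a2 being the one called. Kcnc1 and Kcna2, potassium channel subunits, fell by 0.52 and 0.46, and Slc6a7, a proline transporter, by 0.52. Of 12 potassium channel genes, 6 were above and 6 below 0, with a median of -0.08, and 2 were called on any probe set. Of 11 sodium channel genes and FGF partners, 1 was above and 10 were below 0, with a median of -0.14 that stayed below 0 in 25 of 25 other settings, and 1 was called, Fgf14.

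Microtubules, motors and the cytoskeleton gave 15 called genes, 13 with a probe set higher and 3 with one lower. Map2, the dendritic microtubule protein, had log2 levels of 12.46 to 13.03 (median 12.86) in aSYN/Hsp70 brains and 11.85 to 12.41 (median 12.10) in aSYN brains on 1 probe set, with no overlap. It rose there by 0.71 ± 0.13 and on another by 0.54 ± 0.12 (adjusted p = 0.0124 and 0.0364), while its brightest stood at -0.10. Kif5c, a kinesin heavy chain of axonal transport, rose by 0.48 ± 0.10 on 1 probe set and fell by 0.43 ± 0.10 on another. Its brightest was at -0.10, so no direction for the gene follows. Kif5a, the related motor, rose by 0.52, Dclk1, a doublecortin-like kinase, by 0.48, Dync1li2, a dynein light intermediate chain, by 0.41, and Mtpn by 0.61. Cyria, a regulator of actin through RAC1, rose by 0.94 ± 0.21 (adjusted p = 0.0375), with its brightest other probe set at -0.42. Mapre1, which binds growing microtubule ends, fell by 0.55, and Cotl1, an actin-binding protein, by 0.47. The axonal transport and cytoskeleton list did not share the rise, with 5 of 16 genes above and 11 below 0. Its median was -0.10, turning to 0.0012 with the mean of all probe sets. On the brightest probe set 0 of its genes were called, and on any probe set 3 were called higher and 1 lower.

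**Figure D2:**
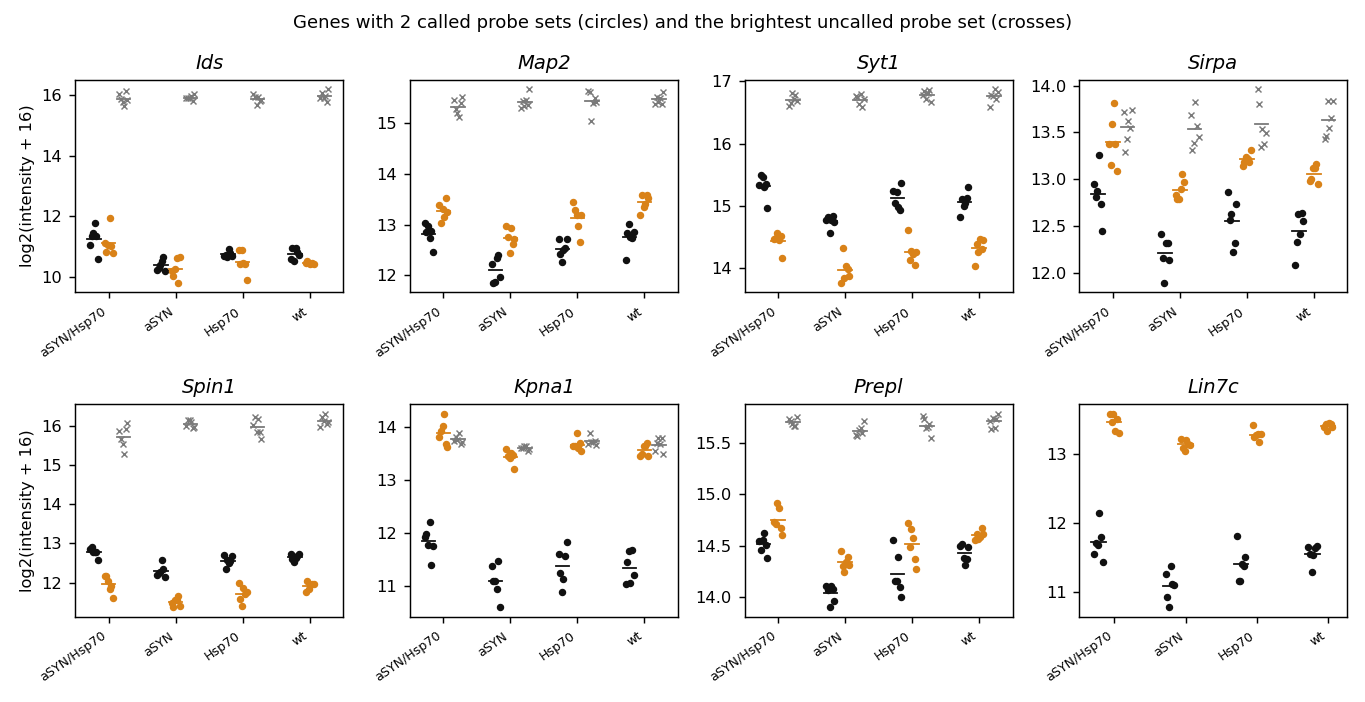
Log2 level of each array in the 4 groups, for the 8 genes with 2 probe sets called in the same direction (circles in black and orange) and, where it was not called, the probe set of highest signal (grey crosses). Short lines are group means of 6 arrays. The mean of the circles is higher in aSYN/Hsp70 than in aSYN in each gene, and the crosses of Ids, Map2, Syt1, Sirpa and Prepl differ by under 0.1.

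Kinases and signalling adaptors gave 14 called genes, 12 higher and 2 lower. Ogt, the enzyme that adds O-linked N-acetylglucosamine to proteins, had log2 levels of 12.51 to 13.20 (median 12.97) in aSYN/Hsp70 brains, against 11.76 to 12.29 (median 12.09) in aSYN brains. The groups did not overlap, and it rose by 0.86 ± 0.11 (adjusted p = 0.00358). Its 4 other tested probe sets stood between 0.13 and 0.46. Ip6k1, an inositol phosphate kinase, rose by 0.70 ± 0.10 (adjusted p = 0.00358), Prkacb, a catalytic subunit of protein kinase A, by 0.70 ± 0.12 (adjusted p = 0.00986), Crk, an adaptor, by 0.75 ± 0.15 and Prkci, an atypical protein kinase C, by 0.72 ± 0.14. Il6st, the shared receptor chain of the IL-6 family, and Tgfbr1, a TGF-beta receptor, rose by 0.87 and 0.86. Spry2, a brake on receptor kinases, fell by 0.40. Nuclear import added Kpna1 (0.74 and 0.45), Kpna3 (0.65 ± 0.11, adjusted p = 0.0107) and Ipo9 (0.45), all higher.

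Mitochondria and metabolism gave 13 called genes, 11 higher and 2 lower. Slc23a2, a vitamin C transporter of neurons, had log2 levels of 10.63 to 11.47 (median 10.87) in aSYN/Hsp70 brains, against 9.37 to 10.12 (median 9.99) in aSYN brains, and rose by 1.01 ± 0.19 (adjusted p = 0.0176). Its other probe set stood at 0.17. Mboat2, an acyltransferase of phospholipid remodelling, rose by 0.68 ± 0.12 (adjusted p = 0.0107), and its other probe set stood at 0.52. Ssbp1, which binds single-stranded mitochondrial DNA, had levels of 11.72 to 12.72 in aSYN/Hsp70 and 12.90 to 13.50 in aSYN brains, without overlap, and fell by 1.01 ± 0.20 (adjusted p = 0.0209). Gart, a purine synthesis enzyme, fell by 0.68 ± 0.12 (adjusted p = 0.0132). Of 12 genes of mitochondrial DNA maintenance and translation, 2 were above and 10 below 0 (median -0.09, -0.15 to -0.06 over the other settings) with Ssbp1 called. Respiratory chain genes had 16 of 29 above 0 and 0 called, with a median of 0.05 that turned to -0.11 with the mean of all probe sets.

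RNA and ribosome genes went both ways. Adarb1 and Adar, the enzymes of adenosine to inosine editing, rose by 0.74 ± 0.13 and 0.56 ± 0.12 (adjusted p = 0.0107 and 0.0281), and Endov, a nuclease that cuts at inosine, by 0.88 ± 0.19. Adarb1 had log2 levels of 10.07 to 10.93 in aSYN/Hsp70 brains and 9.23 to 10.03 in aSYN brains. Snrnp200 and Snrpa1, of the spliceosome, fell by 1.12 ± 0.25 and 0.69 ± 0.16, and Dph5 and Dhps, which modify translation factors, by 0.47 and 0.46. Of 6 called genes of ribosome biogenesis 5 were lower, among them Esf1, a nucleolar protein, which fell by 0.54 ± 0.09 (adjusted p = 0.00791), and 1 higher, Nol6. Bop1, a ribosome assembly factor, had levels of 5.50 to 8.32 (median 6.75) in aSYN/Hsp70 brains and 8.06 to 9.50 (median 8.76) in aSYN brains and fell by 1.93 ± 0.40 (adjusted p = 0.0271). The brighter probe set of Bop1 stood at 0.31.

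Under transcription and chromatin 12 called genes were placed, 3 higher and 9 lower. Npas3, a transcription factor of neurons, had log2 levels of 9.98 to 10.62 (median 10.27) in aSYN/Hsp70 brains, against 11.01 to 11.66 (median 11.40) in aSYN brains. It fell by 1.06 ± 0.19 (adjusted p = 0.0107) with no overlap, while its other 2 tested probe sets stood at 0.02 and -0.19. Tob2 fell by 1.03 ± 0.21, Rorb, a nuclear receptor of cortical layer neurons, by 0.82 ± 0.18, and Bach2 and Stag1 by 0.77 and 0.75. Rtf1, an elongation factor partner, fell by 0.55 ± 0.10 (adjusted p = 0.0107). Zfp953, a zinc finger gene, rose by 1.07 ± 0.25 (adjusted p = 0.0469). Spin1, a histone reader, rose on 2 probe sets (0.48 and 0.45), but its brightest stood at -0.33.

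**Figure D3:**
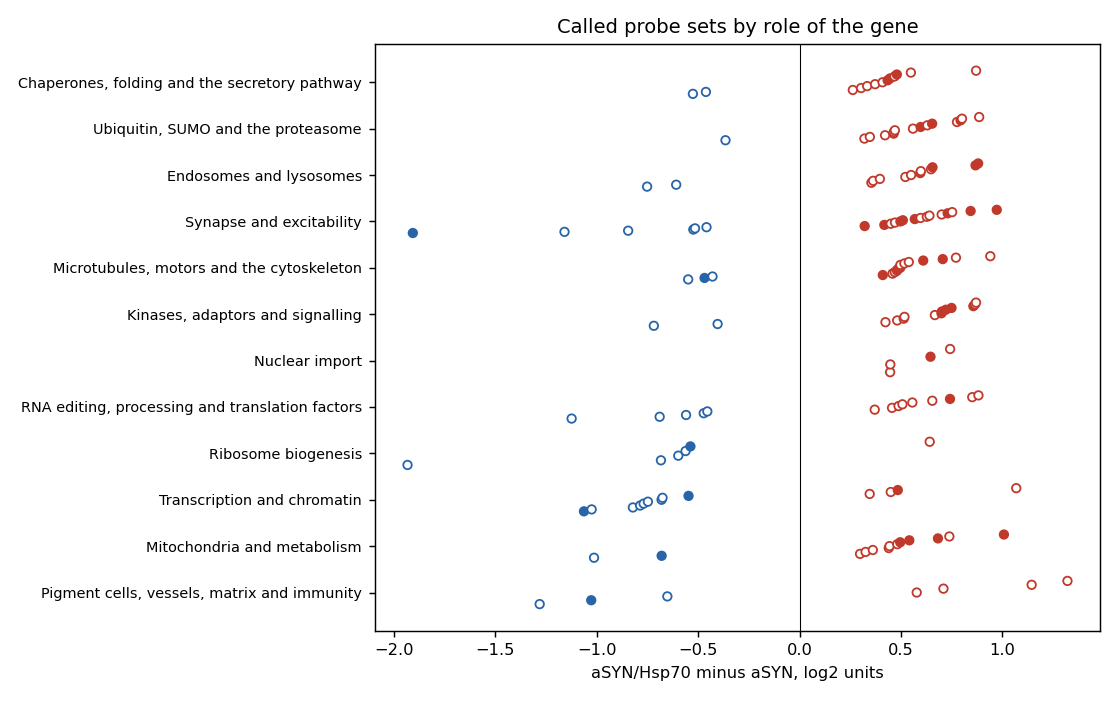
Called probe sets by the role of their gene, with aSYN/Hsp70 minus aSYN in log2 units on the x axis (red higher, blue lower, filled for held calls). Red points fill the upper roles, and ribosome biogenesis and transcription are mostly blue. The roles were assigned after the values were seen.

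Pigment, vessel and immune genes held some of the largest differences. Dct, an enzyme of melanin synthesis, had log2 levels of 9.12 to 10.17 (median 9.36) in aSYN/Hsp70 brains, against 7.68 to 8.66 (median 8.28) in aSYN brains, and rose by 1.32 ± 0.27, a 2.5-fold difference (adjusted p = 0.0238). Edn3, the endothelin that acts on pigment cell precursors, fell by 1.28 ± 0.27 (adjusted p = 0.0276) with its brightest other probe set at 0.33, and Adamts20, a matrix protease, by 1.03 ± 0.16 (adjusted p = 0.00773). Of 7 tested genes of melanocytes and the endothelin 3 axis, 4 were above and 3 below 0. Their median of 0.0016 turned sign in 10 of 25 other settings, and on any probe set 1 was called higher and 1 lower. Cldn5, the tight junction protein of brain endothelium, rose by 0.71 ± 0.17 (adjusted p = 0.046), with 7 of 14 endothelial markers above 0 (median 0.06, -0.0033 to 0.15 over the other settings). B2m, the shared chain of MHC class I, fell by 0.65 ± 0.14 (adjusted p = 0.0271), and its brighter probe set stood at -0.67 with an unadjusted p of 0.0036. Of 13 interferon and MHC class I genes, 1 was above and 12 were below 0, with a median of -0.36 (-0.45 to -0.16 over the other settings) and B2m the one called. Lacc1, an enzyme of macrophages, rose by 1.14 ± 0.25 (adjusted p = 0.0307).

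A further 19 called genes, 12 higher and 7 lower, were left out of the roles. Btbd3, which shapes dendrites, had log2 levels of 12.60 to 12.96 in aSYN/Hsp70 brains, against 11.98 to 12.27 in aSYN brains, and rose by 0.67 ± 0.09 (adjusted p = 0.00358), a held call. The groups did not overlap. Prepl, a peptidase-like hydrolase, rose by 0.47 ± 0.08 and 0.41 ± 0.08 on 2 probe sets (adjusted p = 0.0107 and 0.0149), and Ccser2 rose by 0.71 ± 0.13 (adjusted p = 0.0135). The largest rise among the calls, 1.42 ± 0.31, was that of 2610005L07Rik (adjusted p = 0.0345), and Fndc3a rose by 0.90 ± 0.21 with its brightest other probe set at -0.40. Both calls stood in 3 of the 12 fits that left out 1 array, and in 2610005L07Rik the groups overlapped. Glipr1 fell by 1.00 ± 0.23 (adjusted p = 0.0426), and Mcmbp, a partner of the replicative helicase, by 0.65 ± 0.13 (adjusted p = 0.0226).

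Most calls were not shared by the other probe sets of their gene. Of 161 called genes, 146 had another tested probe set, and the brightest of these went in the called direction in 91. The median in the called direction was 0.595 for the called probe set and 0.0765 for the brightest other. Opposite to the call, the brightest other stood at 0.34 in Cotl1, -0.28 in Tgfbr1, 0.24 in Bach2 and 0.18 in Kcnc1. Further opposite values were 0.12 in Stag1, -0.12 in Arcn1, -0.11 in Kif5a, -0.17 in Fbxw11 and -0.08 in Btbd3. The brightest other was also opposite at -0.07 in Crk, -0.04 in Rnf13, 0.12 in Glipr1, 0.09 in Gart and 0.01 in Snrnp200. In the called direction it stood at 0.59 in 2610005L07Rik, 0.39 in Mettl21a, 0.22 in Usp12, 0.21 in Prkci and Ip6k1, 0.15 in Prkacb and Sort1, 0.13 in Adarb1, 0.09 in Asb7, 0.02 in Gabrb2 and 0.01 in Ptprs. Among lower genes it stood at -0.77 in Tob2, -0.56 in Rorb and -0.35 in Ssbp1. In 8 genes a second probe set was called the same way, all higher, and these were Ids, Map2, Syt1, Sirpa, Spin1, Kpna1, Prepl and Lin7c. The brightest probe set of the gene was called in 43 of 12929 genes (0.333%). Probe sets of 1 gene can read different transcript ends, and which end each reads was not analysed here.

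**Figure D4:**
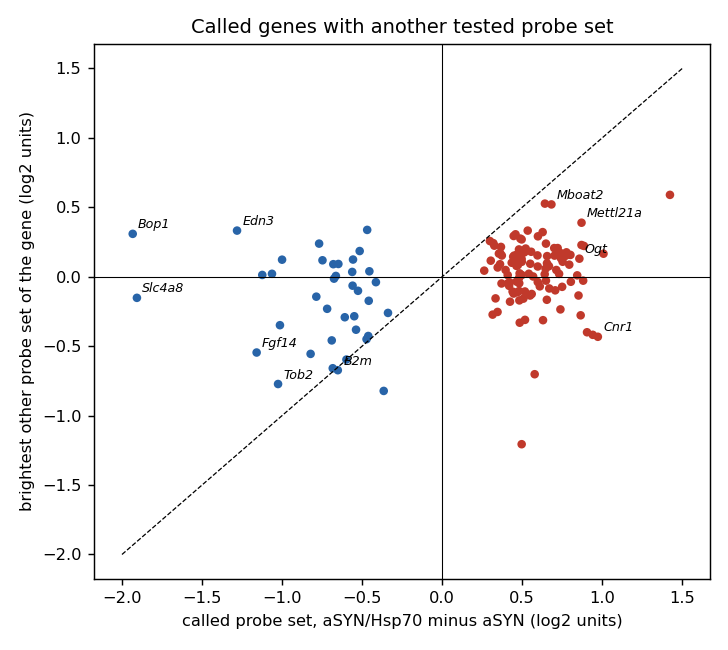
Each point is a called gene with another tested probe set, with the difference of its called probe set on the x axis and that of the brightest other on the y axis, both aSYN/Hsp70 minus aSYN in log2 units. The dashed line marks equal values, and most points lie near 0 on the y axis, with Mboat2, Tob2 and B2m nearer the line.

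Gene lists of brain cell types and regions checked the tissue. All markers with a named probe set lay above the dim limit for excitatory neurons (13), astrocytes (12), oligodendrocytes (15), microglia (13) and endothelium (14). The same held for striatal projection neurons, pericytes, meninges, hypothalamus and thalamus, so passing the limit does not set these cell types apart. The mean log2 level of 12 astrocyte markers was 14.06 to 14.35 in aSYN/Hsp70 and 14.07 to 14.27 in aSYN brains. In bulk tissue, fewer cells of a type and less RNA per cell cannot be told apart. Oligodendrocyte and myelin genes were below 0 in 14 of 15 (median -0.16, -0.21 to -0.09 over the other settings, list level 12.84 to 13.32 in aSYN/Hsp70 and 13.17 to 13.44 in aSYN brains) with 0 called, and Mog was at 9.37 in the lowest aSYN/Hsp70 array, against a lowest value of 12.03 in aSYN. Thalamic markers were below 0 in 8 of 10 (median -0.29, -0.32 to -0.14 over the other settings). Olfactory bulb and immature neuron markers were above 0 in 9 of 12 (median 0.34, 0.27 to 0.51 over the other settings), with Doc2g at 1.20 ± 0.41 and Lbhd2 at 0.81 ± 0.25 (adjusted p = 0.134 and 0.102). The pituitary hormones Prl and Gh spread from 7.46 to 12.04 and from 5.67 to 14.35 in aSYN/Hsp70 brains, against 5.92 to 9.39 and 8.59 to 9.89 in aSYN brains. How much differences in dissection contributed was not tested.

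Clock and activity genes were mostly below 0 and few passed. Circadian clock genes were below 0 in 15 of 18 (median -0.25, -0.29 to -0.17 over the other settings), with Ciart at -0.89 ± 0.26 and Dbp at -0.82 ± 0.24 (adjusted p = 0.089 and 0.0987), while Clock and Arntl stood at 0.33 and 0.34. Rorb was the 1 member called, on a probe set other than its brightest. Immediate early genes were below 0 in 12 of 14 (median -0.34, -0.50 to -0.19 over the other settings) with 0 called, and the largest were Egr2 at -0.97 ± 0.59 and Npas4 at -0.63. Their list level ran from 11.14 to 12.38 in aSYN/Hsp70 brains and from 11.43 to 12.70 in aSYN brains, so the groups overlapped widely. The labels give no hour of collection.

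**Figure D5:**
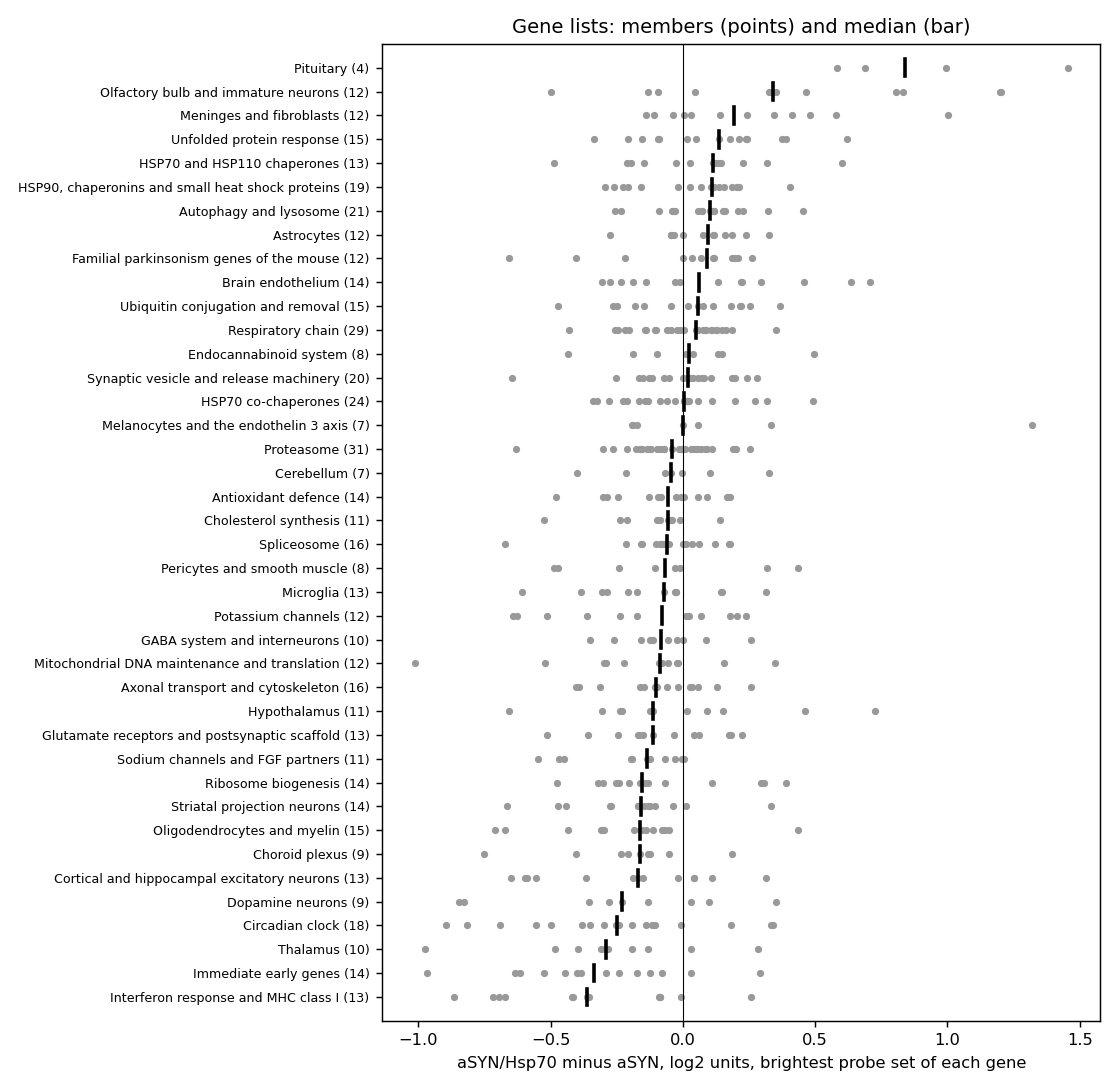
Difference of each list member's brightest probe set (grey points) and the list median (black bar), aSYN/Hsp70 minus aSYN in log2 units, with the number of tested genes in brackets, for lists with 4 or more. Medians run from 0.84 for 4 pituitary genes to -0.36 for 13 interferon and MHC genes, and over the 25 other settings the first ran from 0.45 to 1.37 and the second from -0.45 to -0.16.

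Hsp70 was also compared with wt, where no aSYN is carried. Between Hsp70 and wt brains 0 probe sets were called, with 1305 (4.83%) at an unadjusted p under 0.05, against 5303 (19.6%) between aSYN/Hsp70 and aSYN. The 194 probe sets had a median absolute difference of 0.0956 between Hsp70 and wt, and 18 of them had an unadjusted p under 0.05. Cnr1 differed there by -0.21, Ogt by 0.02, Sort1 by -0.28, Npas3 by -0.05 and Slc4a8 by 0.04. The interaction, the Hsp70 difference with aSYN minus that without it, tests whether the 2 differ, and limma called 0 probe sets in it, with 2198 (8.13%) at an unadjusted p under 0.05. It called up to 81 with array weights, so a dependence of the Hsp70 difference on aSYN was not shown for any single gene by the fit used throughout.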

How the data were processed

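The deposited values are array intensities on a linear scale, 1 per probe set and array, made by the authors; the 2% trimmed mean of each array is the same, and the software that summarised them is unknown from these sources. From them, log2(intensity + 16) was quantile normalised, 64 control probe sets and the dimmest 40% (18015) were left out, and 27022 were tested. One limma 3.58.1 fit (R 4.3.3) over all 24 arrays with 4 group means gave each difference, and p-values were adjusted by the Benjamini-Hochberg method over all probe sets. Single values were tested by exact permutation of the 12 arrays (924 splits, two-sided, smallest p 0.00216). Probe sets were named from the platform annotation, with 34958 of 45101 carrying 1 symbol, 932 several and 9211 none. The 4 arrays of low weight and the sex of each brain were read from the arrays. Each gene was read in a list on its probe set of highest mean signal, and 548 of 619 list genes were tested. The median intensity per array was 507 to 893 in aSYN/Hsp70 and 458 to 581 in aSYN brains, and the number of arrays limits the precision.

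Members and lists were chosen with earlier results of these data known. The genes examined one by one under each alternative were the 12 genes of largest change in each direction, genes with 2 probe sets called alike, and up to 20 held genes; other called genes are named with their values, and in a list up to 4 members of smallest p. Alternatives were no quantile normalisation, an offset of 1 and a larger one, no dim filter, the 12 arrays alone, a replicate block, array weights, sex as a covariate, both together, a trended and robust variance, without the 4 arrays, each replicate left out and, added after seeing the data, a 3' covariate. The fit was tested on simulated data first. These had independent noise in each probe set and no effects of array quality, sex or RNA quality, so they cannot show how such effects move the calls.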

Additional observations from a re-analysis of the deposited data

Results flagged for a closer look

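In the 51 probe sets examined one by one and the 5 measures of RNA quality, 112 groups of 6 arrays were examined for 1 array set apart from the rest by more than Dixon's critical share of the group's range, and 7 were found. Chance flags about 1 in 20 groups. The values are log2 levels. In aSYN/Hsp70 brains, replicate 4 had 10.38 in Zfp953 and 11.95 in Ids, each the highest of its group, replicate 2 had 11.373 in Ccser2, the highest, and replicate 6 had 14.165 in the dimmer Syt1 probe set, the lowest. In aSYN brains, replicate 5 had 9.37 in Slc23a2, replicate 6 had 10.796 in Crk and replicate 3 had 14.561 in the brighter called Syt1 probe set, each the lowest. Replicate 4 of aSYN/Hsp70, with 2 of the 7, is the array with the lowest weight of the series (0.124).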

How the results depend on the processing

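The direction of the 194 calls was the same in all 24 other settings, and their number was not. The settings reuse most or all of the arrays that chose the calls, so the shared direction was nearly fixed in advance. Higher and lower calls numbered 34 and 9 (43 in all) with no filter on dim probe sets, 5 and 2 (7) with the 12 arrays alone, 62 and 28 (90) with the sex covariate, 222 and 147 (369) with a trended and robust variance, 62 and 38 (100) without the 4 arrays of low weight, 23 and 5 (28) with the 3' covariate, and 201 and 123 (324) with array weights. Same-numbered replicates of aSYN/Hsp70 and aSYN did not deviate together (r from -0.0933 to 0.0281). This gave no sign that the numbers pair samples but cannot exclude it. With the replicate block 70 were called, 48 higher and 22 lower. Leaving out 1 array gave 49 to 814 calls, 36 to 405 higher and 9 to 409 lower, and 38 of the 194 stayed called in all 12 such fits. The interaction had 0 calls, but 5 without quantile normalisation, 8 with the larger offset, 81 with array weights, 46 with weights and sex, 24 with a trended variance, 5 without the 4 arrays and 0 to 30 leaving out 1 array. Hsp70 minus wt had 0 in each fit that left out 1 array and 1 with weights and sex. Only aSYN/Hsp70 and aSYN arrays were left out, so these fits cannot tell whether that 0 depends on a single Hsp70 or wt array. The cause of these changes was not tested.

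Of single values, 1 Hspa1b probe set (0.10) turned to -0.11 with sex, -0.0044 with weights and sex, -0.048 with the 3' covariate and -0.0027, -0.0073 and -0.022 without aSYN replicate 2, aSYN replicate 3 and aSYN/Hsp70 replicate 6 (highest 0.286, without aSYN replicate 4). Hspa1a turned to 0.026 with weights and sex, 0.10 without the 4 arrays and 0.066 without aSYN/Hsp70 replicate 4 (lowest -0.666). 1 Hspa8 probe set (0.03) turned to -0.0011 with the 3' covariate and -0.016, -0.0095 and -0.013 without aSYN replicates 3 and 5 and aSYN/Hsp70 replicate 6 (highest 0.073). Without quantile normalisation the 3' minus 5' differences were -0.0188 for beta-actin (exact permutation p = 0.489), -0.0239 for Gapdh and -0.144 for Tfrc. Leaving out 1 array they ran from -0.163 to -0.101 for beta-actin, -0.0172 to 0.0352 for Gapdh, -0.519 to -0.397 for Pcx, -0.0046 to 0.219 for Tfrc and -0.155 to -0.104 for the mean of the 4.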
